A study of Mus musculus with 4 samples.

Results

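Regulatory T cells are CD4 T cells that restrain other immune cells, and a small set of genes marks them across tissues. The levels of 10 such genes were followed in the immune infiltrate of a mouse glioma: Foxp3, Il2ra, Ikzf2, Izumo1r, Lrrc32, Itgb8, Klrg1, Il10, Ccr8 and Tgfb1. They were taken by gene symbol, and each symbol matched 1 of the 31253 genes in the count tables of both genotypes. Single-cell RNA sequencing had been run on live CD45+ cells sorted from tumor-bearing brain hemispheres of 4 WT and 4 CaMKK2 KO mice. All 8 were female C57BL/6 mice of 8 to 12 weeks, and all carried an orthotopic glioma grown for 14 days from 50000 implanted cells of the CT2a line. CaMKK2 KO mice (CaMKK2-/-) lack the calcium/calmodulin-dependent kinase kinase CaMKK2 in every host cell from the germline on, so that a change in T cells need not start in T cells, while the implanted tumor cells were the same in both genotypes. The 4 mice of a genotype were told apart by hashtag antibodies (M1 to M4) and shared 1 droplet channel, so genotype and channel cannot be told apart. In such data fewer transcripts per cell and a different mix of cells within a gate cannot be told apart either.

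Foxp3 is the transcription factor that sets the regulatory T-cell program, and Ikzf2 (Helios) and its Ikaros-family relatives are transcription factors that accompany it. These cells take up interleukin-2 through a receptor whose alpha chain is Il2ra (CD25), and interleukin-2 signals through STAT5, which binds the Foxp3 locus. Their suppressive output includes interleukin-10 (Il10) and TGF-beta1 (Tgfb1). TGF-beta1 is made in a latent form that is held on the cell surface by GARP (Lrrc32) and released by the integrin chain beta8 (Itgb8). Izumo1r encodes folate receptor 4, Ccr8 a chemokine receptor of tissue regulatory T cells whose ligands include Ccl1, and Klrg1 a lectin-like receptor of differentiated T and NK cells that binds cadherins.

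In mm10 coordinates of the GENCODE M21 annotation, Foxp3 spans chromosome X from 7573644 to 7595245 on the plus strand. Il2ra spans chromosome 2 from 11642807 to 11693193 (plus), and Il10 (131019845 to 131024974, plus) and Ikzf2 (69531214 to 69687245, minus) lie on chromosome 1. Klrg1 lies on chromosome 6 from 122270596 to 122282882 (minus). Tgfb1 (25687002 to 25705077) and Lrrc32 (98489283 to 98502181) lie on the plus strand of chromosome 7. Izumo1r (14885814 to 14903949, minus) and Ccr8 (120092114 to 120094906, plus) lie on chromosome 9, and Itgb8 on chromosome 12 from 119158022 to 119238802 (minus). RefSeq promoter windows of 300 bases around the start site, in GRCm38.p6, matched 6 of the 10 genes in 7 windows. Ikzf2, Lrrc32, Klrg1 and Il10 were not matched. Foxp3 had more than 1 window, of which the one with motif matches is shown. 3 windows are shown, for the gene that defines the gate, for the receptor chain most tied to it and for the member that did not follow the T-cell pattern: Foxp3 (chrX:7580233-7580532), Il2ra (chr2:11642542-11642841) and Tgfb1 (chr7:25686752-25687051), all on the plus strand and 5′ to 3′. Capitals mark letters that matched a searched motif.
Foxp3: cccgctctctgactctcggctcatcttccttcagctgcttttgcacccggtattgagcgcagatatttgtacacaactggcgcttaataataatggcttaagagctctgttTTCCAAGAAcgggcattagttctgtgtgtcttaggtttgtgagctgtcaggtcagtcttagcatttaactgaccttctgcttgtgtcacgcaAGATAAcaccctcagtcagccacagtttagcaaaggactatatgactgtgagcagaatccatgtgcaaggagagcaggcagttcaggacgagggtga
Il2ra: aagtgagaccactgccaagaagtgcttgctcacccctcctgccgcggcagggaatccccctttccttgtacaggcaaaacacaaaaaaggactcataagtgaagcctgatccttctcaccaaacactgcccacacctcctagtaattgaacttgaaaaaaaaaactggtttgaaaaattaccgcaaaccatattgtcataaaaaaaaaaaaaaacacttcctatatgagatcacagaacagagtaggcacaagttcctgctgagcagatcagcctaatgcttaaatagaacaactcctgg
Tgfb1: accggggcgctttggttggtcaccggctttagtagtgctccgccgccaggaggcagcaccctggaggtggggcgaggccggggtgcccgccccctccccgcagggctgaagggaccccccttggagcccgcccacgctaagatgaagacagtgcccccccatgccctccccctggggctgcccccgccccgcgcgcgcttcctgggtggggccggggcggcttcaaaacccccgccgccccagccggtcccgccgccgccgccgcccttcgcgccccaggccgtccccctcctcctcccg
The Tgfb1 window had a GC content of 77.0%, above 97.57% of the 32851 RefSeq promoter windows of the same length, and 30 CpG dinucleotides against a median of 7 over all windows. The Il2ra window (42.67% GC, 3 CpG) and the Foxp3 window shown (47.67% GC, 8 CpG) lay under the median GC content of 52.67%. The other Foxp3 window (chrX:7579426-7579725, plus strand) had 40.67% GC, 6 CpG and no match to a searched motif. Of 4 motifs searched on both strands, TTCNNNGAA, the palindrome that STAT factors bind, occurred in 8.298% of all windows and in 1 of the 7 member windows. That match was TTCCAAGAA in the Foxp3 window shown. The letters AGATAA occurred in 11.18% of all windows and in 2 of the 7, the Foxp3 window shown and that of Ccr8. The forkhead motif TGTTTAC (3.65% of all windows) and the AP-1 motif TGANTCA (7.808%) occurred in 0 of the 7. No match here overlapped another, and these counts describe letters and not binding.

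The authors deposited raw counts of unique molecular identifiers (UMIs) for 6689 WT and 7271 CaMKK2 KO barcodes, 42 of which occur in both libraries. After hashtag assignment and removal of outlying cells and doublets, 5050 WT and 5635 CaMKK2 KO cells remained, with 11886048 to 20346223 UMIs and a median of 10030 to 13870 UMIs per cell in each mouse. Levels are given as CPM, the UMIs of a gene per 1000000 UMIs of the cells summed. Camkk2 itself was at 27.7 to 39.0 CPM over all cells in the WT mice and at 13.3 to 22.6 in the CaMKK2 KO mice, lower in every KO mouse than in every WT mouse but not absent (257 to 362 UMIs). Whether these reads lie outside the deleted exons was not tested. Cells were gated by the UMIs of marker genes: T cells had at least 2 UMIs of Cd3d, Cd3e and Cd3g together and at most 1 UMI of myeloid or B-cell markers. Of 1617 T cells, 255 had no Cd8a or Cd8b1 UMI and at least 1 Foxp3 UMI, and these are the Foxp3+ T cells, 106 from WT mice 1 to 4 (7, 37, 28 and 34) and 149 from CaMKK2 KO mice 1 to 4 (32, 24, 78 and 15). WT mouse 1 had 44 T cells in all, against 138 to 342 in the other mice. The Foxp3+ cells held the T-cell markers (Cd3e in 97.65% and Cd3d in 92.16% of cells) and a Cd4 UMI in 69.02%, while the NK-cell gene Ncr1 was seen in 1.569% of them.

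When T cells were clustered without the 10 genes, 195 of the 255 Foxp3+ T cells fell into 1 cluster of 349 cells led by Maf, Tnfrsf4, Rapsn and Ecm1. That cluster is called Treg-like here, since 2 of its 10 leading genes (Tnfrsf4 and Icos) were on the list of regulatory T-cell markers. No other marker list had as many. Of the 9 markers listed, which were not withheld from the clustering, 8 were higher in it than in the other T cells. These were Ctla4, Tnfrsf4, Tnfrsf18, Tnfrsf9, Ikzf4, Capg, Icos and Gpr83, the last at only 2.52 against 0.07 CPM. The exception was Nrp1, at 33.6 CPM inside the cluster and 73.3 outside. Of the 349 cells of the cluster 232 had a Foxp3 UMI. The classes called Foxp3-negative can therefore hold Treg-like cells in which no Foxp3 UMI was read. A further 35 Foxp3+ cells lay in a stem-like cluster led by S1pr1, Klf3, Slamf6 and Tcf7, and 21 lay in a cluster of cycling cells led by histone genes and Mki67, which no marker list named.

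Levels across the gated classes separated the genes into 3 patterns. Levels are mean CPM ± SD over the mice and serve to compare classes within a gene and not genes with each other. Foxp3 defined its own gate, at 602 ± 154 (n = 8), and in the other gated classes its mean did not exceed the 1.20 ± 2.09 of type 1 dendritic cells. T cells that fell outside these subsets (36 WT and 84 CaMKK2 KO cells), some with both Cd8 and Foxp3 UMIs, are not among the classes, and their Foxp3 level averaged 416 CPM in WT and 125 in CaMKK2 KO mice. Il2ra and Ikzf2 were carried by the Foxp3+ cells at levels that did not overlap with any other of these classes. The T cells outside the subsets did overlap. Their highest WT mouse held 836 CPM of Il2ra and 2611 of Ikzf2, against Foxp3+ minima of 504 and 1403. Their highest CaMKK2 KO values, 336 and 785, lay below these minima. Il2ra stood at 776 ± 209 (n = 8) in Foxp3+ T cells and at 219 ± 97.0 (n = 7) in Cd4+ Foxp3-negative T cells. Mature dendritic cells came next, at 130 ± 89.2 with a range from 18.2 to 306, and gamma-delta, Cd4-undetected and CD8 T cells lay at 79.9, 76.6 and 65.2, each overlapping with its neighbour. Ikzf2 was at 1919 ± 298 in Foxp3+ cells and fell through the T-cell subsets, from 752 ± 339 in Cd4+ Foxp3-negative cells over 390 and 336 in Cd4-undetected and gamma-delta cells to 177 ± 55.1 in CD8 T cells. NK cells held an Ikzf2 level of 34.9 ± 10.2 CPM, below every CD8 T-cell value.

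A second pattern was shared by genes whose level in Foxp3+ cells overlapped with that of the Cd4+ Foxp3-negative cells. Izumo1r was at 372 ± 93.7 and 189 ± 83.2 in these classes and at 11.0 ± 3.02 in CD8 T cells. Lrrc32 (86.7 ± 31.2 and 36.5 ± 48.5) and Itgb8 (134 ± 47.1 and 75.7 ± 65.3), which hold and activate latent TGF-beta, were both under 1 CPM in CD8 T cells and macrophages. Il10 was as high in Cd4+ Foxp3-negative cells (101 ± 67.9) as in Foxp3+ cells (103 ± 71.9), and macrophages, often named as a source of this cytokine, held 1.34 ± 0.49. The part of Treg-like cells without a Foxp3 UMI in the levels of the Cd4+ Foxp3-negative class was not tested. Ccr8 was at 40.3 ± 30.4 in Foxp3+ cells and at 18.9 ± 7.16 in Cd4+ Foxp3-negative cells. Klrg1 stood at 166 ± 126 in Foxp3+ cells, with NK cells second at 47.9 ± 29.2 and CD8 T cells at 3.09 ± 2.32.

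Tgfb1 alone did not follow the T-cell pattern. It was highest in monocytes (638 ± 160), followed by NK cells (403 ± 66.1), type 2 dendritic cells (377 ± 94.6) and neutrophils (352 ± 272), and each neighbouring pair in that order overlapped. Foxp3+ T cells were at 292, close to macrophages (310 ± 23.6) and microglia (302 ± 44.9).

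**Figure D1:**
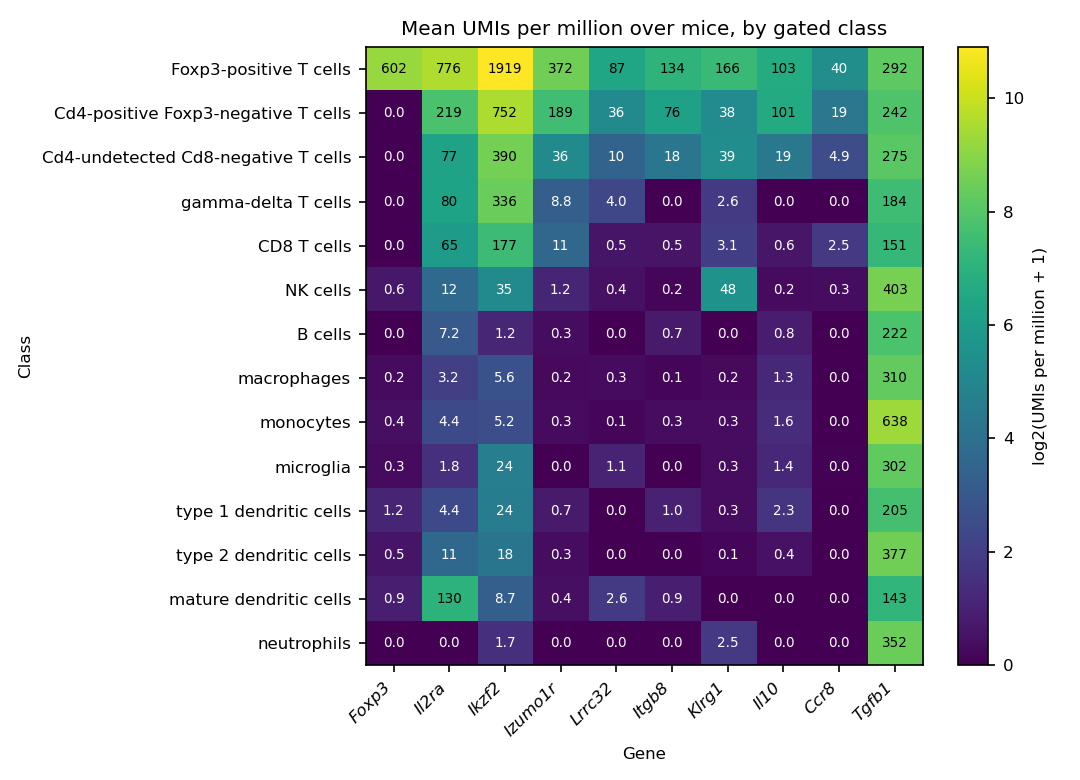
Mean level of the 10 genes (columns) in 14 gated classes (rows), in CPM, with color on the log2(CPM + 1) scale and the mean over mice printed in each field. Foxp3+ T cells lead 9 of the columns, while Tgfb1 peaks in monocytes at 638.

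Across classes and mice, Lrrc32 and Itgb8 were the genes most like Foxp3. Over 100 combinations of class and mouse with at least 10 cells, Pearson's r of log2(CPM + 1) with Foxp3 was 0.67 for Lrrc32, the highest of 11274 genes, and 0.62 for Itgb8, the second. They were followed by Il1rl1 (the interleukin-33 receptor, 0.62), Snw1 (0.61) and Sh3rf1 (0.59). Izumo1r ranked 12, Klrg1 23, Il10 29, Il2ra 31, Ikzf2 59 and Tgfb1 4527 (r = 0.09), and Ccr8 had under 200 UMIs and was not ranked. The points share libraries, mice and depth, so these values are a description. The Foxp3+ class was gated on Foxp3 and the other T-cell classes on its absence. The ranking therefore in part repeats that split and is no separate support for it.

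Whether the other 9 genes go with Foxp3 within the same mouse was tested by comparing Foxp3+ with Foxp3-negative cells among Cd8-negative T cells. Summed UMIs per mouse and class were fitted across 8552 genes with the quasi-likelihood test of edgeR, with the mouse as a block, and p-values were adjusted by the Benjamini-Hochberg method. In this contrast 15.5% of all genes were called, 9.69% (829 genes) higher and 5.85% (500) lower in Foxp3+ cells, or 537 and 675 with TMM scaling, and 8 of the 9 members rose in Foxp3+ cells, as they also did by DESeq2. The median log2 fold change over all genes was 0.11. The Foxp3-negative side joins Cd4+, Cd4-undetected and gamma-delta T cells, and the part of this mix in the folds was not tested.

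The interleukin-2 receptor chain Il2ra was at 504 to 1108 CPM in the Foxp3+ cells of the 8 mice (median 733) and at 26.6 to 173 in their Foxp3-negative cells (median 107). Every Foxp3+ value exceeded every Foxp3-negative value, with a log2 fold change of 2.80 ± 0.18 (SE, edgeR adjusted p = 7.364e-11). Ikzf2 ranged from 1403 to 2298 (median 1956) against 154 to 604 (median 479), again without overlap, with a log2 fold change of 2.23 ± 0.15 (edgeR adjusted p = 7.844e-11). Izumo1r ranged from 219 to 511 against 5.32 to 168, and its log2 fold change was 2.28 ± 0.19 (edgeR adjusted p = 5.104e-09). For all 3 the Foxp3+ cells were higher in 8 of 8 mice.

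The pair that handles latent TGF-beta moved the same way. Lrrc32 was at 43.9 to 129 CPM in Foxp3+ cells (median 89.9) and at 0 to 30.3 in Foxp3-negative cells, a log2 fold change of 2.66 ± 0.34 (edgeR adjusted p = 2.374e-06). Itgb8 was at 43.9 to 186 (median 154) and at 0 to 47.7, a log2 fold change of 2.45 ± 0.28 (edgeR adjusted p = 4.278e-07). Both were higher in the Foxp3+ cells of 8 of 8 mice, although for Itgb8 the ranges met in WT mouse 1, whose 7 Foxp3+ cells held the lowest value. Tgfb1, the cytokine itself, was not called: it lay between 234 and 367 in Foxp3+ and between 138 and 357 in Foxp3-negative cells, higher in 5 of 8 mice, with a log2 fold change of 0.20 ± 0.13 (edgeR adjusted p = 0.3544).

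Klrg1, Il10 and Ccr8 were called with less even mice. Klrg1 ranged from 0 to 393 CPM in Foxp3+ and from 10.7 to 59.1 in Foxp3-negative cells, with a log2 fold change of 2.41 ± 0.32 (edgeR adjusted p = 4.702e-06) and a higher Foxp3+ value in 6 of 8 mice, all but WT mice 1 and 2. Il10 ranged from 9.94 to 243 against 5.32 to 88.5, higher in all mice but CaMKK2 KO mouse 4, with a log2 fold change of 1.53 ± 0.30 (edgeR adjusted p = 0.0005664). Its mean in the Cd4+ part of the Foxp3-negative cells was nearly that of the Foxp3+ cells (101 against 103 CPM). Ccr8 ranged from 3.596 to 87.7 against 2.16 to 16.95, higher in all but CaMKK2 KO mouse 1, with a log2 fold change of 1.77 ± 0.41 (edgeR adjusted p = 0.003235). These 8 calls held under every alternative in which the gene was tested.

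**Figure D2:**
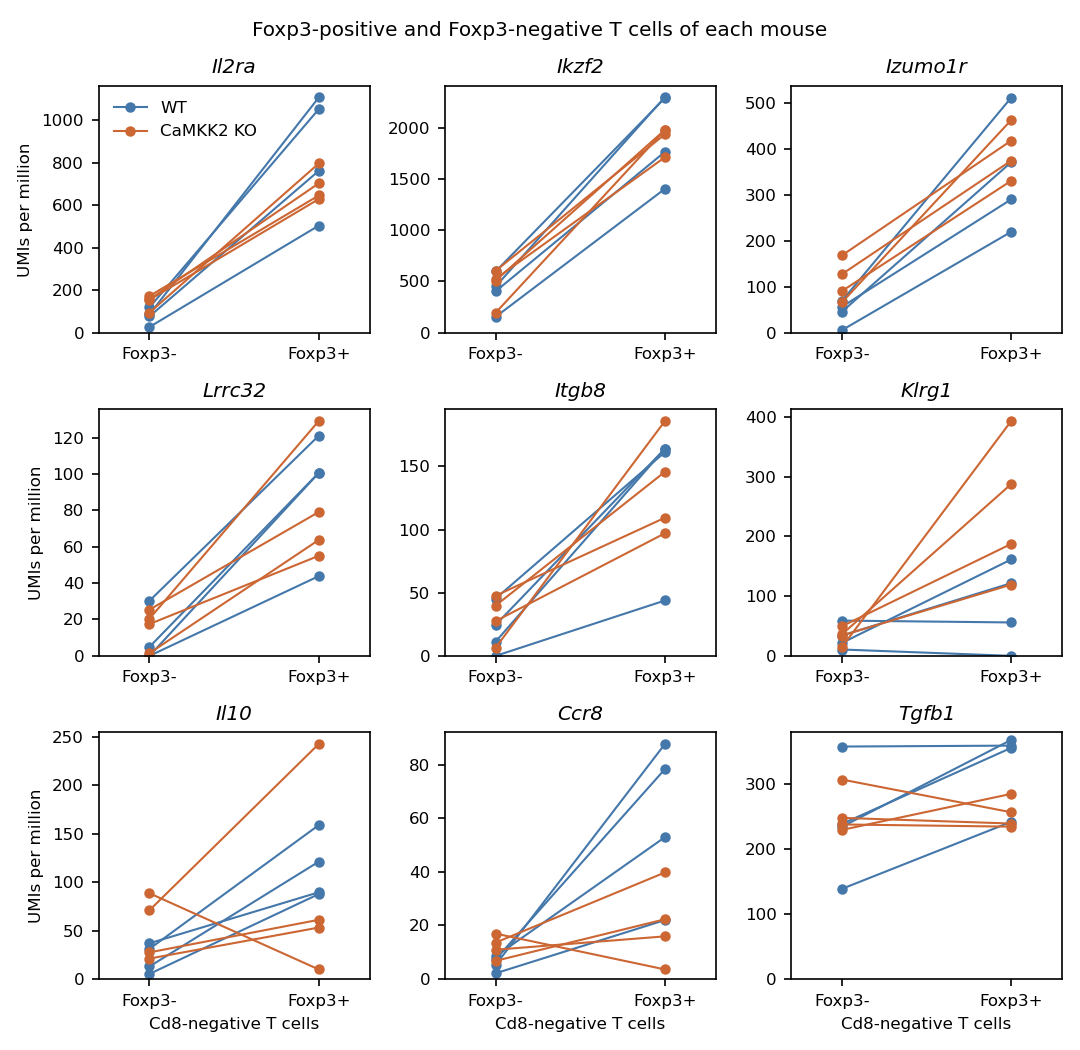
Level in CPM (y axes, linear from 0) of 9 genes in the Foxp3-negative and Foxp3+ Cd8-negative T cells of each mouse, with a line per mouse (blue WT, orange CaMKK2 KO). Il2ra, Ikzf2, Izumo1r, Lrrc32 and Itgb8 climb in 8 of 8 mice, whereas Tgfb1 climbs in 5.

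Of 26 listed partner genes of regulatory T cells, 23 were tested in the same contrast, 15 rose, 0 fell and 16 had an unadjusted p under 0.05, with 15 calls by DESeq2. Their median log2 fold change was 1.497. The list overlaps with the genes that marked the Treg-like cluster, and it was drawn up with earlier results of these data known. Its highest members were Ikzf4 (Eos, 2.81 ± 0.26), Il1rl1 (2.38 ± 0.50), Tnfrsf4 (OX40, 2.35 ± 0.26) and Ctla4 (the checkpoint receptor, 2.27 ± 0.21). Of 13 tested TGF-beta axis genes, Itgav, the partner chain of Itgb8, Tgfbr1 and Ski rose and 2 fell, Itgb1 (log2 fold change -1.53 ± 0.20) and the receptor chain Tgfbr2 (-0.59 ± 0.18, lost without any 1 of 5 mice, at an edgeR adjusted p of up to 0.09823 without CaMKK2 KO mouse 3). Of 10 genes of the interleukin-2 axis edgeR called 1, Cish, a STAT5 target (0.88 ± 0.15), with 3 at an unadjusted p under 0.05 and 2 calls by DESeq2, and of 6 genes of the interleukin-10 axis 0 were called by edgeR, with 2 at an unadjusted p under 0.05 and 1 call by DESeq2. Over all 8552 genes of this contrast, 2246 had an unadjusted edgeR p under 0.05 and DESeq2 called 911. Among 4 Ikaros-family genes Ikzf4 rose and Ikzf1 fell (-0.48 ± 0.15, with an edgeR adjusted p of up to 0.08806 among alternatives). Ccl1, a ligand of CCR8 and the only tested gene of the ligand list, fell by 5.39 ± 0.67 on the log2 scale. It had 7 UMIs in Foxp3+ and 687 in Foxp3-negative cells, and 658 of the latter came from CaMKK2 KO and 29 from WT mice.

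Over all genes, the 5 largest called rises were Gm4841 (4.23), Gm13522 (3.88), Rln3 (relaxin-3, 3.81), Rapsn (3.76) and Csrp2 (3.54), in log2 fold change, each from 53 to 369 UMIs in both classes together. The 5 largest falls were in genes of innate-like lymphocytes: the Ly49 receptors Klra9 and Klra1, the gamma-delta T-cell receptor genes Trgc4 and Trdc, and Cd163l1. Klra9 had 0 UMIs in Foxp3+ and 349 in Foxp3-negative cells, at least 49.6-fold lower against a floor of 3 counts over the class, and the bounds for Klra1, Trgc4 and Cd163l1 were 43.1-, 34.4- and 31.0-fold. Trdc had 2 against 915 UMIs, a ratio of 195 (95% exact interval 53.9 to 1614, which covers counting error only). The Foxp3-negative class includes the gamma-delta T cells by its gate.

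Within the 255 Foxp3+ T cells, detection was uneven between genes. Joint detection was not tested against what each gene gives alone. 53 cells had 1 Foxp3 UMI, 37 had 2 and 165 had 3 or more, up to 19. Each cell held UMIs of 1 to 9 of the other 9 genes (median 5), and 162 cells held at least 5. Ikzf2 was seen in 251 cells, Il2ra in 222, Izumo1r in 197 and Tgfb1 in 194, while Itgb8 was seen in 114, Klrg1 in 96, Lrrc32 in 83, Il10 in 66 and Ccr8 in 45. Il10 was the most uneven: 5 cells held 35.46% of its 282 UMIs, and 1 CaMKK2 KO cell held 42.

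The genes differed in where among the Foxp3+ cells they were found. In the 195 cells of the Treg-like cluster Il10 was at 194 CPM, against 23.9 in the 21 cycling cells and 10.8 in the 35 stem-like cells. Itgb8 followed the same order, at 190, 59.8 and 21.7, as did Lrrc32 for its highest value (103 in Treg-like cells) with 33.5 in cycling and 48.7 in stem-like cells. Il2ra (911, 653 and 449) and Tgfb1 (316, 294 and 168) differed less. Foxp3 itself, which selected these cells, had its highest CPM in the stem-like cells, at 953, with 562 in Treg-like and 323 in cycling cells. Depth differed too, with a median over the whole cluster of 5298, 5982 and 20618 UMIs per cell. By share of cells with a UMI, Itgb8 was highest in cycling cells (61.9%, against 49.2% in Treg-like and 11.4% in stem-like cells). Lrrc32 was too (47.6, 34.4 and 17.1%), while Il10 stayed highest in Treg-like cells (31.3%). All are values over cells of all mice, given without a test.

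Foxp3+ cells with and without a Klrg1 UMI did not differ one way across mice in Il10 or Itgb8. Summed over CaMKK2 KO mice, Il10 was at 203 CPM with and 104 without a Klrg1 UMI, but KO mice 1 (51.8 against 76.7) and 4 (0 against 12.1) had less in the Klrg1-bearing cells, while mouse 3, at 336 against 151, had more. Itgb8 was at 165 against 110 in the sum and lower in the Klrg1-bearing cells of KO mouse 1 (80.6 against 125). In WT mice the same split gave 140 against 108 for Il10 and 140 against 163 for Itgb8, from 26 Klrg1-bearing and 80 other cells. Foxp3 differed little, at 489 against 478 in CaMKK2 KO and 609 against 656 in WT mice. The sums were not tested across mice.

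The share of T cells with a Foxp3 UMI did not differ detectably between genotypes. To set depth aside, each cell was thinned to 3000 UMIs, which left out 23 WT and 44 CaMKK2 KO cells. The share was 16.3, 16.7, 11.43 and 15.4% in WT mice 1 to 4 and 10.8, 10.5, 19.1 and 11.41% in CaMKK2 KO mice 1 to 4. CaMKK2 KO mouse 3 stood above every WT mouse and the other 3 below every WT mouse, mouse 4 only barely. The means were 14.95 ± 2.41% in WT and 13.0 ± 4.13% in CaMKK2 KO mice (SD, n = 4 each), a difference of -1.99 points (two-sided exact permutation test, p = 0.4, with 0.02857 the smallest p that 4 against 4 mice can give). Without CaMKK2 KO mouse 3 the difference was -4.05 points (exact permutation p = 0.05714). That is the smallest p that 4 against 3 mice can give, so this test could not pass 0.05. Without thinning the shares were 18.7 ± 2.43 and 17.9 ± 6.30%. Thinned cells that should lack Foxp3 gave 0.2633 and 0.3995% in NK cells and 0.1428 and 0.0471% in macrophages (WT and CaMKK2 KO), and 0% in B cells.

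The choice of denominator mattered more. Of Cd8-negative T cells only, 31.6 ± 5.85% held a Foxp3 UMI in WT mice, and 20.6 ± 8.76% did so in CaMKK2 KO mice, which was -11.0 points away (exact permutation p = 0.1143, n = 4 each). Cd4+ cells made up 0, 26.7, 27.9 and 26.8% of the Cd8-negative Foxp3-negative T cells in WT mice and 56.3, 72.0, 47.2 and 59.2% in CaMKK2 KO mice, with every KO mouse above every WT mouse. In contrast, the Treg-like cluster held 18.5 ± 4.80% of WT and 21.1 ± 8.86% of CaMKK2 KO T cells, a difference of 2.63 points in the other direction (exact permutation p = 0.7429, n = 4 each).

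**Figure D3:**
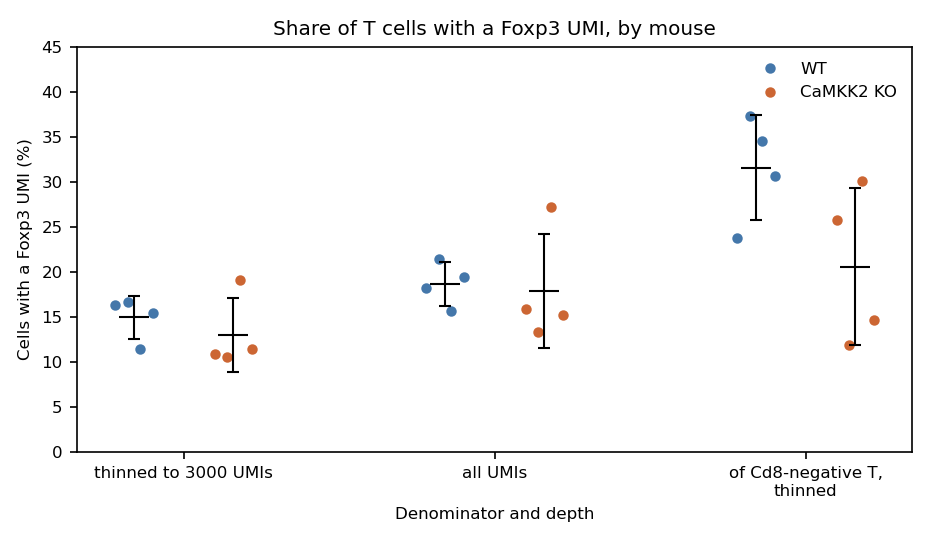
Percent of T cells with a Foxp3 UMI in each mouse (points, blue WT, orange CaMKK2 KO) after thinning to 3000 UMIs per cell, with all UMIs, and among Cd8-negative T cells after thinning. Lines and bars give the mean ± SD over 4 mice, and the genotypes overlap in each of the 3 versions.

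Within Foxp3+ T cells, CaMKK2 KO and WT mice were compared for all 10 genes, Foxp3, which sets the gate, among them. edgeR called 0.507% of 5328 genes there (0.188% or 10 genes higher and 0.319% or 17 lower in CaMKK2 KO, and 9 and 7 by DESeq2) and 0 of the 10 members, 4 of which had an unadjusted p under 0.05, and DESeq2 also called 0, with 3 at an unadjusted p under 0.05. Over all 5328 genes, 536 had an unadjusted edgeR p under 0.05. WT mouse 1 entered with 45610 UMIs from its 7 cells.

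Klrg1 had the largest estimate upward. It was at 0, 56.0, 122 and 161 CPM in WT mice 1 to 4 and at 288, 393, 187 and 119 in CaMKK2 KO mice 1 to 4. KO mice 1 to 3 exceeded every WT mouse, and mouse 4 fell between the WT values. The log2 fold change was 1.28 ± 0.36 (edgeR adjusted p = 0.1252). It passed the threshold in 1 of 18 settings, when the Treg-like cluster replaced the Foxp3 gate (1.11, edgeR adjusted p = 0.03222). The percent of Foxp3+ cells with a Klrg1 UMI, thinned to 3000 UMIs, was 0, 14.4, 15.8 and 24.2 in WT and 42.4, 52.6, 30.7 and 15.98 in CaMKK2 KO mice, and unthinned it was 0, 21.6, 17.9 and 38.2 against 56.3, 54.2, 46.2 and 20.0.

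Ccr8 had the largest estimate downward, from few UMIs. It was at 87.7, 78.3, 52.9 and 22.0 CPM in WT mice and at 3.596, 15.9, 22.3 and 39.8 in CaMKK2 KO mice, from 41 and 23 UMIs in all. 3 of the WT mice lay above every KO mouse, and WT mouse 4 fell among the KO values. The log2 fold change was -1.52 ± 0.49 (edgeR adjusted p = 0.1995).

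Foxp3 was at 943, 619, 625 and 624 CPM in WT and at 532, 547, 446 and 477 in CaMKK2 KO mice. All 4 KO values lay below all WT values, but the log2 fold change of -0.43 ± 0.17 was not called (edgeR adjusted p = 0.3297). The gate requires at least 1 Foxp3 UMI per cell, so this comparison was conditioned on Foxp3 itself and cannot stand for its level in regulatory T cells. In the Treg-like cluster, made without Foxp3, it was at 406 to 1326 CPM in WT and 316 to 364 in CaMKK2 KO mice, without overlap. WT mouse 1 had 6 cells in that cluster. Foxp3 was called in 0 of 18 settings, the cluster among them. Tgfb1 was at 241, 358, 355 and 367 in WT and at 284, 234, 256 and 239 in CaMKK2 KO mice, where WT mouse 1 fell among the KO values and the other 3 lay above them (log2 fold change -0.43 ± 0.17, edgeR adjusted p = 0.3586). Il2ra was at 504, 1108, 762 and 1053 against 629, 797, 704 and 646, with overlap, at a log2 fold change of -0.37 ± 0.18 (edgeR adjusted p = 0.5101). Lrrc32 was at 43.9, 101, 101 and 121 against 79.1, 63.8, 55.0 and 129, at -0.51 ± 0.29 (edgeR adjusted p = 0.5727).

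For Ikzf2, Izumo1r, Itgb8 and Il10 the estimate was smaller than its SE, and the genotypes overlapped for each. Il10 spread most within a genotype, from 9.94 to 243 in CaMKK2 KO mice against 87.7 to 159 in WT mice. Summed myeloid transcripts (8 genes of macrophages, such as C1qa and Apoe) were at 833 to 1260 CPM in the Foxp3+ cells of WT mice, with 7 or 8 of the 8 genes above 0 and Csf1r at 0 in WT mouse 1, and at 590 to 632 in CaMKK2 KO mice, with 8 of 8 above 0. In macrophages the sum was 57090 to 66250 in WT and 25000 to 29590 in CaMKK2 KO mice. The part of these transcripts in the differences above was not tested.

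**Figure D4:**
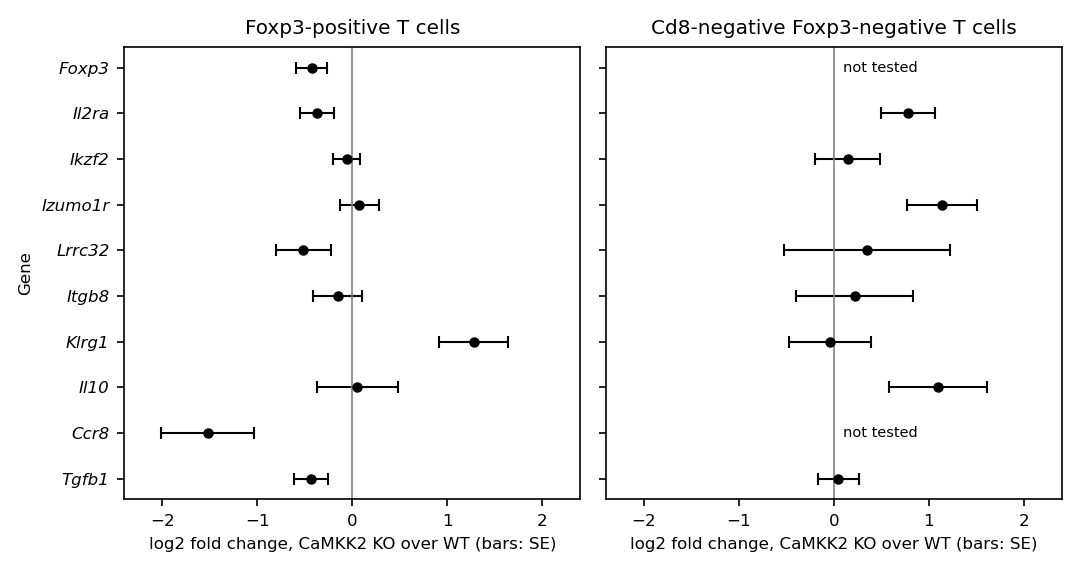
Log2 fold change of CaMKK2 KO over WT (x axis, points, bars ± SE computed from the F statistic of edgeR) for the 10 genes (y axis) in Foxp3+ T cells (left, gated on Foxp3 itself) and Cd8-negative Foxp3-negative T cells (right, where Foxp3 is the gate and Ccr8 had too few UMIs). No member passed an adjusted p of 0.05 in either class, and Klrg1 in Foxp3+ cells has the highest estimate, 1.28.

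Partner genes did change in the Foxp3+ cells. Of 22 tested, 0 rose and 2 fell, with 5 at an unadjusted p under 0.05 and 1 call by DESeq2. Nt5e, which encodes the adenosine-producing ectoenzyme CD73, was at 263, 216, 212 and 301 CPM in WT mice and at 43.2, 5.31, 38.7 and 29.8 in CaMKK2 KO mice. Every KO mouse lay far below every WT mouse, and the gene fell by 2.89 ± 0.30 on the log2 scale (edgeR adjusted p = 4.401e-06), a call kept in all 18 settings. Tnfrsf9 (4-1BB), a costimulatory receptor of activated T cells, was at 285, 1089, 630 and 859 against 338, 409, 417 and 348. WT mouse 1 was below all KO mice and the other WT mice above them, and the gene fell by 1.01 ± 0.23 on the log2 scale (edgeR adjusted p = 0.04169), a call kept in 7 of 18 settings and lost without WT mouse 2 (edgeR adjusted p = 0.1748), WT mouse 4 (0.1204) or any 1 of the 4 KO mice (0.07661 to 0.1994). DESeq2 did not call it (adjusted p = 0.09263).

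Neither fall was found in Foxp3+ cells alone. Nt5e was at 36.0 to 47.3 CPM in WT and 9.10 to 16.5 in CaMKK2 KO NK cells, and it fell there by 1.51 ± 0.19 (edgeR adjusted p = 0.000656). Tnfrsf9 fell in NK cells by 1.13 ± 0.13 and in CD8 T cells by 1.48 ± 0.19 on the log2 scale (edgeR adjusted p = 0.000201 and 0.0001956). In macrophages it fell by 2.78 ± 0.52 (edgeR adjusted p = 0.02115, called in 12 of 15 settings), from 23 UMIs in KO and 215 in WT cells. Over all T cells the falls were 1.29 for Nt5e and 1.18 for Tnfrsf9. Of the TGF-beta, interleukin-2 and interleukin-10 axes and the Ikaros family, 0 genes of 12, 8, 6 and 3 tested were called in Foxp3+ cells by edgeR or DESeq2, with 3, 0, 1 and 1 at an unadjusted edgeR p under 0.05.

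Klrg1 was the member that differed between genotypes with a call, and it did so in NK cells. There 1.98% of 9434 genes were called (1.27% or 120 higher, 0.71% or 67 lower, and 86 and 90 with TMM scaling), and of the 4 members that reached 50 UMIs (Il2ra, Ikzf2, Klrg1 and Tgfb1) 1 was called by edgeR and by DESeq2. Klrg1 was at 31.8, 21.5, 27.5 and 20.5 CPM in the NK cells of WT mice and at 82.7, 97.3, 41.4 and 60.7 in those of CaMKK2 KO mice. Every KO mouse exceeded every WT mouse, and the log2 fold change was 1.499 ± 0.26 (edgeR adjusted p = 0.006271). The call held in all 15 settings, with log2 fold changes from 0.94 to 1.74. The thinned share of NK cells with a Klrg1 UMI was 4.04% in WT and 16.4% in CaMKK2 KO mice, against 0.046 and 0.044% in macrophages, with median depths of 8074 and 6284 UMIs in NK cells and 16010 and 16280 in macrophages. Of the 4 members, 3 had an unadjusted edgeR p under 0.05, Klrg1 among them, as did 1508 of all 9434 genes. The other members in NK cells were not called: Tgfb1 was at 269 to 421 in WT and 399 to 490 in CaMKK2 KO mice (log2 fold change 0.29, edgeR adjusted p = 0.3118), and Il2ra at 10.7 to 21.0 and 1.52 to 13.7 (-0.78, edgeR adjusted p = 0.2844). Among other listed genes in NK cells, Pmepa1 rose by 1.01 ± 0.15 and Cish fell by 0.89 ± 0.14 on the log2 scale. Both were called in 15 of 15 settings (edgeR adjusted p = 0.002452 and 0.003964). The myeloid sum in NK cells was 740 to 2242 in WT and 700 to 1199 in CaMKK2 KO mice.

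Over all T cells, where 1.87% of 9928 genes were called (1.12% or 111 higher, 0.755% or 75 lower, and 87 and 121 with TMM scaling), Klrg1 was again the 1 member of 10 that was called, by edgeR and by DESeq2. It was at 7.66, 24.5, 17.8 and 28.6 CPM in WT mice and at 41.4, 44.9, 54.9 and 31.6 in CaMKK2 KO mice. The lowest KO value lay just above the highest WT value, and the log2 fold change was 0.99 ± 0.22 (edgeR adjusted p = 0.03604). The call was less firm than in NK cells, kept in 8 of 15 settings. It was lost when outlying cells were kept (edgeR adjusted p = 0.05463) and without WT mouse 2 (0.07466), 3 (0.1361) or 4 (0.05005) or CaMKK2 KO mouse 1 (0.06706), 2 (0.08591) or 3 (0.07741). In the Cd8-negative Foxp3-negative T cells Klrg1 did not differ beyond the spread (log2 fold change -0.04 ± 0.43), and in CD8 T cells its 20 UMIs lay under the floor of 50. CD8 T cells, where Klrg1 was at 3.09 CPM, made up 379 of 684 WT and 325 of 933 CaMKK2 KO T cells. The part of this makeup in the call over all T cells was not tested. Izumo1r (0.63, edgeR adjusted p = 0.1795), Il10 (0.69, 0.4329), Ccr8 (-0.59, 0.3465) and Foxp3 (-0.26, 0.584) were not called over all T cells. Of the 10 members, 2 had an unadjusted edgeR p under 0.05 there, Klrg1 among them, as did 1546 of all 9928 genes.

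**Figure D5:**
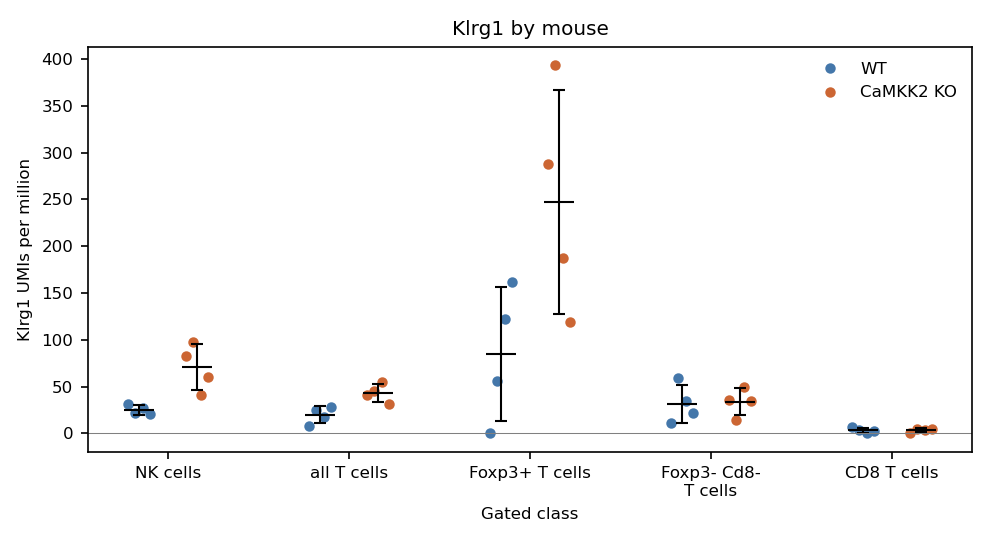
Klrg1 level in CPM (y axis) for each mouse (points, blue WT, orange CaMKK2 KO) in 5 gated classes, with the mean ± SD over 4 mice. In NK cells and in all T cells every CaMKK2 KO mouse lies above every WT mouse, while in Foxp3+ T cells KO mouse 4, at 119, falls among the WT mice.

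The Foxp3-negative side of the contrast changed more broadly. Among Cd8-negative Foxp3-negative T cells (163 from WT, 375 from CaMKK2 KO mice) 3.43% of 7663 genes were called (2.39% or 183 higher, 1.04% or 80 lower, and 140 and 120 with TMM scaling), but 0 of the 8 tested members by edgeR or DESeq2, with 2 and 3 at an unadjusted p under 0.05. Over all 7663 genes, 1246 had an unadjusted edgeR p under 0.05. Il2ra was at 26.6, 86.1, 76.5 and 119 CPM in WT and at 155, 94.2, 157 and 173 in CaMKK2 KO mice. 3 of the KO mice lay above every WT mouse, at a log2 fold change of 0.78 ± 0.28 (edgeR adjusted p = 0.1721). Izumo1r was at 5.32, 68.9, 45.3 and 56.2 against 127, 65.7, 90.4 and 168, with WT mouse 2 overlapping KO mouse 2, at 1.14 ± 0.37 (edgeR adjusted p = 0.1187). With outlying cells kept, both were called (edgeR adjusted p = 0.0247 and 0.0293). Il10 was at 5.32 to 36.9 in WT and at 21.2 to 88.5 in CaMKK2 KO mice (1.10 ± 0.52, edgeR adjusted p = 0.3108).

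As given above, Cd4+ cells made up a larger share of this class in every CaMKK2 KO mouse, and the part of that makeup in these values was not tested. Within Cd4+ Foxp3-negative cells, of which WT mouse 1 had 0 and WT mice 2 to 4 had 12 to 15, Il2ra was at 208, 197 and 411 CPM in WT mice 2 to 4 and at 182, 109, 265 and 160 in CaMKK2 KO mice. Within Cd4-undetected cells it was at 27.6, 57.6, 67.2 and 54.0 in WT and at 161, 54.7, 90.0 and 101 in KO mice. 3 of the KO mice thus lay below every WT mouse among the Cd4+ cells and 3 above every WT mouse among the Cd4-undetected cells. Ikzf2 was at 1085, 1076 and 937 in WT and at 612, 161, 873 and 520 in KO Cd4+ Foxp3-negative cells, every KO mouse below every WT mouse, without a test.

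8 of 22 tested partner genes rose and 2 fell in the Foxp3-negative cells of CaMKK2 KO mice, with 10 calls by DESeq2 and 15 at an unadjusted edgeR p under 0.05. Their median log2 fold change was 0.94, against 0.09 over all genes. Among all called listed genes the highest estimates were those of Il1rl1, the CCR8 ligand Ccl1 (3.64 ± 0.87), Ebi3, a subunit of interleukin-27 and interleukin-35 (2.86 ± 0.56), and Nrp1 (neuropilin-1, 2.26 ± 0.34). Il1rl1 rested on 61 UMIs in KO and 1 in WT cells, a ratio of 26.0 (95% exact interval 4.49 to 1042, counting error only), and Ebi3 on 91 and 5. Among the called listed genes the lowest estimates were those of Nt5e (-1.34 ± 0.33), Tnfrsf9 (-0.99 ± 0.22), the TGF-beta inhibitor Smad7 (-0.73 ± 0.17) and Tnfrsf18 (GITR, 0.70 ± 0.16), all called by edgeR (adjusted p from 0.02195 to 0.03824). Between these lay Furin (1.58 ± 0.30), Ctla4 (1.23 ± 0.24) and Capg (1.08 ± 0.18), each called in 16 of 16 settings. Prdm1 (1.35 ± 0.31) and Entpd1 (1.22 ± 0.31) lay there too, called in 10 of 15 and 8 of 16 settings. Several of the calls in this class were lost when a mouse was left out, with folds of the same direction. The call of Nt5e was lost in 5 of 15 alternatives (log2 fold change -1.57 to -0.997 over all of them, edgeR adjusted p up to 0.1501), that of Ccl1 in 6 (2.73 to 6.43, up to 0.1466), that of Tnfrsf9 in 4 (-1.20 to -0.89, up to 0.07373), that of Tnfrsf18 in 4 (0.59 to 0.82, up to 0.09172) and that of Smad7 in 3 (-0.85 to -0.50, up to 0.09243). 1 of the 15 alternatives, at least 2 Foxp3 UMIs per Foxp3+ cell, changes no Foxp3-negative cell. It repeats the main fit and could not lose a call. Without WT mouse 4, Nt5e, Ccl1, Smad7, Tnfrsf18 and Il1rl1 were all not called. Other mice whose removal ended a call were WT mouse 3 and KO mice 2 to 4 for Nt5e, WT mice 2 and 3 and KO mice 1 and 2 for Tnfrsf9, WT mouse 2 and KO mice 1 and 4 for Tnfrsf18, KO mice 1 and 2 for Smad7, WT mice 1 and 2 and KO mice 1 and 4 for Ccl1, and WT mice 2 and 3 for Il1rl1. DESeq2 did not call Ccl1 (adjusted p = 0.1466). The calls of Ebi3 and Nrp1 held in every setting in which they were tested. In CD8 T cells Ccl1 and Tnfrsf18 were instead lower in CaMKK2 KO mice, called in 15 of 15 settings each. Their log2 fold changes there were -4.458 ± 0.8009 and -0.7393 ± 0.1341 (edgeR adjusted p = 0.005755 and 0.00615). Tnfrsf9 fell in both classes. Ccl1 had 30 UMIs in KO and 748 in WT CD8 T cells. A T-cell cluster led by Tnfsf8, Cd4 and Ccl1 held 6 WT and 135 CaMKK2 KO cells. Its part in the values of the Foxp3-negative class was not tested.

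The difference between the genotypes in the Foxp3+ against Foxp3-negative contrast was then tested as an interaction. It was called for 0.924% of 8552 genes (0.129% or 11 higher, 0.795% or 68 lower, and 35 and 49 with TMM scaling) and for 1 of the 9 members, Il2ra, by edgeR, while DESeq2 called 0, and 5 had an unadjusted edgeR p under 0.05. Over all 8552 genes, 820 had an unadjusted edgeR p under 0.05. The Foxp3+ excess of Il2ra was smaller in CaMKK2 KO mice, by 1.13 ± 0.26 on the log2 scale (edgeR adjusted p = 0.02136). The values behind it are those given above, lower on average in KO Foxp3+ cells and higher in KO Foxp3-negative cells, neither of which was called. The call held in 10 of 17 settings, with adjusted p from 0.001296 to 0.1406. It was lost by DESeq2 (adjusted p = 0.05054), at a floor of 200 UMIs (edgeR adjusted p = 0.05615) and without WT mouse 2 (0.1406) or 3 (0.05596) or CaMKK2 KO mouse 1 (0.07731), 3 (0.05538) or 4 (0.07002). For Ccr8 the estimate was -2.42 ± 0.76 (edgeR adjusted p = 0.1485), for Izumo1r -0.95 ± 0.33 (0.2118), for Klrg1 1.42 ± 0.57 (0.3516) and for Il10 -1.19 ± 0.53 (0.4556).

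8 of 23 partner genes also had a smaller Foxp3+ excess in CaMKK2 KO mice, and 0 had a larger one, with 5 calls by DESeq2 and 12 at an unadjusted edgeR p under 0.05. The median estimate of the list was -1.04, against -0.12 over all genes. In Foxp3+ cells, as given above, 2 partner genes were called between genotypes, Nt5e and Tnfrsf9, both lower in KO mice. In Foxp3-negative cells 8 rose and 2 fell, with Ctla4 and Capg among the rises. The part of each side in these estimates was not tested. The lowest listed estimates were Ccl1 (-6.88 ± 1.68), Il1rl1 (-5.10 ± 1.12), Ebi3 (-3.26 ± 0.68) and Nt5e (-1.65 ± 0.41). The highest among the called genes were Maf, a transcription factor of interleukin-10-producing T cells (-1.43), Icos (-1.23), Itgav (-1.08) and Capg (-1.04). Between these lay Tnfrsf4 (-1.57 ± 0.32) and Ctla4 (-1.55 ± 0.22), named after their values were seen. The call of Ctla4 held in 17 of 17 settings and that of Tnfrsf4 in 15 of 17, lost by DESeq2 (adjusted p = 0.2247) and at a floor of 200 UMIs (edgeR adjusted p = 0.06701). The estimates of Ccl1 and Il1rl1 rest on few UMIs on 1 side of the contrast. The call of Ccl1 held in 5 of 16 settings and was lost without WT mouse 1 (-4.29, edgeR adjusted p = 0.5694) and with at least 2 Foxp3 UMIs per Foxp3+ cell (-1.65, 0.9688). That of Nt5e held in 7 of 17 settings, of Itgav in 8, of Icos in 10, of Maf in 12 and of Capg in 16, while those of Il1rl1 and Ebi3 were each lost without WT mouse 2 (0.05115 and 0.09208) or 3 (0.1284 and 0.05596).

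Outside these classes no member was called between genotypes at the floor of 50 UMIs. In CD8 T cells 1.3% of 8667 genes were called (0.738% or 64 higher, 0.565% or 49 lower, and 52 and 71 with TMM scaling) and 0 of the 4 members tested, by edgeR or DESeq2, with 1 at an unadjusted edgeR p under 0.05. That gene was Ikzf2, at 158 to 254 CPM in WT and 89.1 to 194 in CaMKK2 KO mice (log2 fold change -0.51 ± 0.21, edgeR adjusted p = 0.2575). Over all 8667 genes tested in CD8 T cells, 1276 had an unadjusted edgeR p under 0.05. The listed gene Stat3 fell there by 0.63 ± 0.15 on the log2 scale (edgeR adjusted p = 0.04026), a call kept in 9 of 15 settings. At a floor of 20 UMIs 6 members were tested in CD8 T cells and 1 was called, Ccr8 (edgeR adjusted p = 0.0377), with 1, 1, 9 and 11 UMIs in WT mice 1 to 4 and 0 UMIs in each CaMKK2 KO mouse. In macrophages 2.91% of 11102 genes were called (1.18% or 131 higher, 1.73% or 192 lower, and 194 and 138 with TMM scaling) and 0 of 4 members, with 0 by DESeq2 and 0 at an unadjusted edgeR p under 0.05, and 2 of 16 tested genes of the TGF-beta axis were called, both lower (4 at an unadjusted p under 0.05, 2 calls by DESeq2). Over all 11102 genes tested in macrophages, 2379 had an unadjusted edgeR p under 0.05. Thbs1, a thrombospondin that can activate latent TGF-beta, fell by 2.29 ± 0.19 and Itgav by 0.80 ± 0.11 on the log2 scale (edgeR adjusted p = 0.000209 and 0.003712). From other lists Il15ra rose by 0.78 ± 0.17 (edgeR adjusted p = 0.04227) and Ctla4 by 1.97 ± 0.44 (0.04311), the latter from 71 UMIs in KO and 28 in WT macrophages. The calls of Il15ra and Ctla4 held in 7 of 15 and 6 of 14 settings. Macrophages of both genotypes together also held T-cell transcripts, with Cd3d at 2.55, Cd3e at 1.42 and Cd3g at 2.95 CPM. The part of T-cell RNA in the macrophage calls of Ctla4 and Tnfrsf9 was not tested. Tgfb1 in macrophages was at 297 to 353 in WT and 276 to 313 in CaMKK2 KO mice (-0.12 ± 0.09, edgeR adjusted p = 0.4938).

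29 further values of a member in another class were compared by exact permutation of 4 against 4 mice, and the smallest adjusted p was 0.6905. The smallest unadjusted p, 0.02857, was that of Ikzf2 in the T cells outside the gated subsets, at 1521 ± 831 CPM in WT and 678 ± 85.7 in CaMKK2 KO mice (exact permutation, n = 4 each). In mature dendritic cells, the main source of Il2ra outside T cells, it was at 66.2, 80.7, 133 and 91.1 CPM in WT and at 18.2, 164, 185 and 306 in CaMKK2 KO mice (exact permutation p = 0.2857, n = 4 each). 3 of the KO mice lay above every WT mouse and KO mouse 1 below them. Tgfb1 in monocytes, its highest class, was at 445, 818, 910 and 542 in WT and at 678, 651, 517 and 543 in CaMKK2 KO mice, which overlapped (exact permutation p = 0.4857, n = 4 each).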

How the data were processed

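Live CD45+ cells of 2 pooled libraries, WT and CaMKK2 KO, had been sequenced with 10x 3′ chemistry. The authors deposited raw UMI counts per gene and hashtag, made against mm10 (per the submitters' processing notes, with Cell Ranger 4.0.0, bcl2fastq 2.20 and STAR 2.7.5c). Mice were assigned with HTODemux (Seurat 5.3.0, quantile 0.99), cells beyond 3 median absolute deviations (scuttle 1.12.0) were removed, and so were doublets (hashtags, then Scrublet in scanpy 1.11.5). Cells were classed by marker UMIs. The UMI thresholds of the gates were set after seeing these data. Sums of UMIs for each class of each mouse were scaled by their total (TMM scaling was an alternative). Genes with at least 50 UMIs were tested with the quasi-likelihood test of edgeR 4.0.16 and Benjamini-Hochberg adjustment at 0.05, and with DESeq2 1.42.0 as an alternative. SEs of edgeR log2 fold changes were computed as the absolute log2 fold change divided by the square root of the F statistic. Mice are separate animals, but each genotype is 1 channel. The members and lists were chosen with earlier results of these data known. Listed genes past the threshold were named, at most the 4 highest and 4 lowest, with 5 extremes each way for the Foxp3 contrast and the 5 genes most like Foxp3. Further called listed genes were named after their values were seen. The model steps were tested on simulated counts. Intervals cover counting error only.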

Additional observations from a re-analysis of the deposited data

Results flagged for a closer look

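In 6 of 82 groups of 4 mice, 1 mouse stood apart (its gap to the nearest mouse, divided by the range, was above Dixon's 95% critical value), where chance gives about 1 in 20. In Foxp3+ T cells these were Foxp3 in WT mouse 1 (942.8 CPM, highest), Itgb8 in the same mouse (43.85 CPM, lowest), Tgfb1 in the same mouse (241.2 CPM, lowest) and Ikzf2 in CaMKK2 KO mouse 3 (1711 CPM, lowest). WT mouse 1 had 7 Foxp3+ T cells. The others were Lrrc32 in the Cd8-negative Foxp3-negative T cells of WT mouse 4 (30.28 CPM, highest) and the Foxp3 share of T cells in CaMKK2 KO mouse 3 (19.13%, highest).

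The Foxp3+ against Foxp3-negative difference differed between genotypes, by edgeR's interaction term, for Il2ra (-1.134 on the log2 scale). It also did so for the listed genes Ccl1 (-6.881), Il1rl1 (-5.097), Ebi3 (-3.258), Nt5e (-1.65), Maf (-1.433), Icos (-1.229), Itgav (-1.075) and Capg (-1.042), the 4 lowest and 4 highest estimates of the called listed genes, and for Tnfrsf4 (-1.571) and Ctla4 (-1.55) between them. For each, the Foxp3+ against Foxp3-negative difference was lower in CaMKK2 KO mice, which need not mean a lower level in Foxp3+ cells.

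Foxp3 UMIs were also present in cells of mixed lineage markers, which entered no comparison: 14 in 99 WT cells and 24 in 141 CaMKK2 KO cells, above the 3 counts that a count of 0 allows.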

How the results depend on the processing

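For Foxp3+ T cells, the 27 genes called between genotypes became 16 with DESeq2, 14 at a floor of 200 UMIs, 42 at a floor of 20 and 46 in the Treg-like cluster. A floor of 200 UMIs, which leaves fewer genes to test, gave 119 instead of 186 in all T cells, 67 instead of 113 in CD8 T cells and 39 instead of 79 for the interaction. Keeping outlying cells gave 517 instead of 263 in Cd8-negative Foxp3-negative T cells, 337 instead of 187 in NK cells and 167 instead of 79 for the interaction, which fell to 51 without removal by Scrublet score. DESeq2 called 695 instead of 323 genes in macrophages. The cause of these shifts was not tested. The Foxp3 share difference of -1.991 points turned to 2.633 as the share of the Treg-like cluster.

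Leaving out 1 mouse at a time gave 79 to 209 genes in all T cells, 19 to 32 in Foxp3+ T cells, 122 to 370 in Cd8-negative Foxp3-negative T cells, 54 to 136 in CD8 T cells, 85 to 605 in NK cells, 155 to 565 in macrophages, 1015 to 1297 for Foxp3+ against Foxp3-negative cells and 44 to 87 for the interaction. The share difference ranged from -4.048 to -1.165 points. Over 109 results of single genes and 1640 alternatives, 1484 kept direction and side of the threshold, 150 lost the call, 6 gained it and 0 changed direction. Members whose estimate was smaller than its SE, such as Ikzf2 and Il10 in Foxp3+ T cells, are not among these results. Other genes entered only if called in the main fit. Both choices make a change of direction less likely. In Cd8-negative Foxp3-negative T cells the alternative of at least 2 Foxp3 UMIs repeats the main fit, and it is counted among those kept. Allowing a Cd8 UMI count of 1 was an alternative chosen after seeing the data. No pairing between genotypes was possible because hashtag numbers only name mice, and no mouse is in both genotypes. WT mouse 1, with 7 Foxp3+ T cells, limits the precision of every genotype comparison there, and Ccr8, with 64 UMIs in those cells, that of its own estimate.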
